A study of Mus musculus with 20 samples.

Results

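Hepatocyte identity transcription factors are the DNA-binding proteins that switch on and hold the gene programme of the adult liver cell. The set described here has 9 members of the 18193 genes read on the arrays: Hnf4a, Cebpa, Nr5a2, Foxa1, Foxa2, Foxa3, Onecut1, Prox1 and Gata4. They were chosen by name, with earlier results of these data known. Each was read from the brightest of its probe sets by mean log2 value over all arrays. The 9 genes had 19 probe sets between them, and all 9 brightest probe sets lay above the detection floor in all 20 livers. Values are intensities on a linear scale after normalization between arrays.

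The study asked how liver gene expression responds to a very low fat diet when Scd1, the stearoyl-CoA desaturase that makes monounsaturated fatty acids, is missing. Liver RNA was hybridized to 1 Affymetrix Mouse430v2.0 array per liver, in 4 groups of 5 livers. The groups were Scd1+/+ mice on chow, Scd1+/+ mice on the very low fat (VLF) diet TD03045 from Harlan Teklad, Scd1-/- mice on chow, and Scd1-/- mice on that VLF diet. The labels name no other allele, Cre driver or agent, and the sources used here do not give age, sex, strain, feeding state or time on the diet.

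HNF4A and NR5A2 are nuclear receptors, C/EBP-alpha is a leucine zipper protein, FOXA1, FOXA2 and FOXA3 are forkhead proteins that can bind closed chromatin, and ONECUT1, PROX1 and GATA4 act early in liver formation and again in the adult organ. In hepatocytes these proteins bind many of the same enhancers and each other's promoters, so that each helps to keep the others expressed. They are known for driving secreted plasma proteins, bile acid synthesis, gluconeogenesis and the urea cycle.

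Cebpa and Hnf4a stand at the centre of this network, and the sequences before their annotated start sites are shown because Cebpa fell furthest of the 9 genes and Hnf4a had the most probe sets that moved together. RefSeq lists 1 start for Cebpa and 2 for Hnf4a in build GRCm38.p6. The upstream Hnf4a start is the promoter known for embryonic and pancreatic use, and the downstream one is the promoter known from adult liver. Each window holds the 250 bases before the start, on the plus strand, at chr7:35119043-35119292 for Cebpa, chr2:163506607-163506856 for the upstream Hnf4a start and chr2:163546905-163547154 for the downstream one. Capitals mark matches on either strand to motifs of the members' own families.
Cebpa: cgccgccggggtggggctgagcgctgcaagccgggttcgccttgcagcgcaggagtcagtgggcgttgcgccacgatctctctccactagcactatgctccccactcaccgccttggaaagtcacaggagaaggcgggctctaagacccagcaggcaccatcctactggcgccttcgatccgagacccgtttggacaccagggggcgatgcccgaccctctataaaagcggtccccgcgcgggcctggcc
Hnf4a upstream: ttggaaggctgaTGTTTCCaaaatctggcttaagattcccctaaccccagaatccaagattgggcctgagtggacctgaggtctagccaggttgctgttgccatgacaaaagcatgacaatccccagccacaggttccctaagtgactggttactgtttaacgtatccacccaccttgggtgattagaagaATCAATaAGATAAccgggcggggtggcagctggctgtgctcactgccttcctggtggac
Hnf4a downstream: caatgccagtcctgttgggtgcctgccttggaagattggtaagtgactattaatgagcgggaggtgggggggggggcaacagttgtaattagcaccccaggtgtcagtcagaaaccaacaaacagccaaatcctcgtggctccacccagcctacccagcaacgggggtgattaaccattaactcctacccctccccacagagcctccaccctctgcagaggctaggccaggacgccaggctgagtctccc

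The upstream Hnf4a window held a FOXA match beginning 238 bases before the start, an ONECUT match 59 bases before it and a GATA match 52 bases before it, and no matches overlapped. The Cebpa window and the downstream Hnf4a window held none of the 6 motifs searched. Those motifs, read on both strands, were TGTTTNC for FOXA, TTGCNNAA for C/EBP, CAAAGTCC for HNF4, ATTGAT for ONECUT, CAAGGTCA for NR5A and AGATAA for GATA. Among 32851 RefSeq promoter windows of the same length, 17.8% held the FOXA motif, 9.56% C/EBP, 1.2% HNF4, 6.72% ONECUT, 1.33% NR5A and 9.99% GATA. RefSeq windows were matched for 8 of the 9 members. Nr5a2 held GATA and C/EBP matches, Foxa1 and Prox1 a FOXA match each, and Foxa2 an ONECUT and a GATA match, while the Foxa3 and Onecut1 windows held none. A match is a description of letters in a window, and the arrays do not measure binding.

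Scd1, the check of the genotype labels, lay between 6460 and 20348 in the 10 wild-type livers and between 27.2 and 57.9 in the 10 knockout livers. All 20 arrays carried the hepatocyte markers at high level, although their summed intensity was 145724 to 152813 in knockout livers on the VLF diet and 165375 to 170918 in the other 3 groups. Macrophage markers moved the other way, and all 10 rose in VLF-fed knockout livers. The 3'/5' signal ratio of the actin control, a measure of RNA integrity and labelling, was 1.69 to 1.96 in knockout VLF livers, 1.95 to 2.39 in wild-type VLF livers, 2.10 to 2.37 in knockout chow livers and 2.49 to 3.07 in wild-type chow livers. That of the Gapdh control was 1.25 to 1.35 in knockout VLF livers, within the 1.23 to 1.41 of wild-type VLF livers, and 1.33 to 1.41 and 1.42 to 1.71 in knockout and wild-type chow livers. Xist, the female-specific X-inactivation RNA, was at the floor in wild-type VLF replicate 3 and between 1230 and 1937 in the other 19 livers. Eif2s3y, a Y-linked gene, was at the floor in all 20 livers. That array stands apart, and calls of named genes that turn on it are given without it too.

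On the VLF diet 7 of the 9 factors were lower in the knockout than in the wild type and none was higher. They were Cebpa, Onecut1, Foxa2, Nr5a2, Prox1, Hnf4a and Gata4, in order of the size of the fall, which ran from 4.07-fold for Cebpa to 1.21-fold for Gata4. Foxa1 and Foxa3 did not pass the test. On chow none of the 9 passed it, where 3.29% of measurable genes did. For the diet in the wild type only Onecut1 passed, as higher, where 1.77% did. In a fit of those 2 groups alone the Onecut1 call was lost. Foxa3, at -0.68 for that diet effect, missed the threshold (limma adjusted p = 0.0737) and passed it without wild-type chow replicate 4. A gene is called here when the adjusted p of limma, a linear model fitted to all probe sets with Benjamini-Hochberg adjustment, is under 0.05.

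These counts stand in a comparison in which much of the array moved. In this comparison limma called 47.4% of the 16187 measurable genes, 25.8% as lower and 21.5% as higher. Among the 9306 brighter genes, those of mean log2 at least 6 as all members are, 61.6% were called and 33.9% were lower. The median log2 change of the 9 members was -0.70, against -0.06 over all measurable genes. With the arrays centred on the hybridization controls instead, a scaling that does not hold the bulk of genes level, the median over all genes moved to 0.13. On that scale 4 members were called in place of 7: Cebpa, Nr5a2 and Onecut1 as lower and Foxa1 as higher. Of 16545 genes, 957 were then called lower and 5092 higher. Relative to the median of all genes, 7 of the 9 members were lower with each of 3 scalings, Foxa1 and Foxa3 being the exceptions. Without wild-type VLF replicate 3, 6 members were called, Gata4 being lost.

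**Figure D1:**
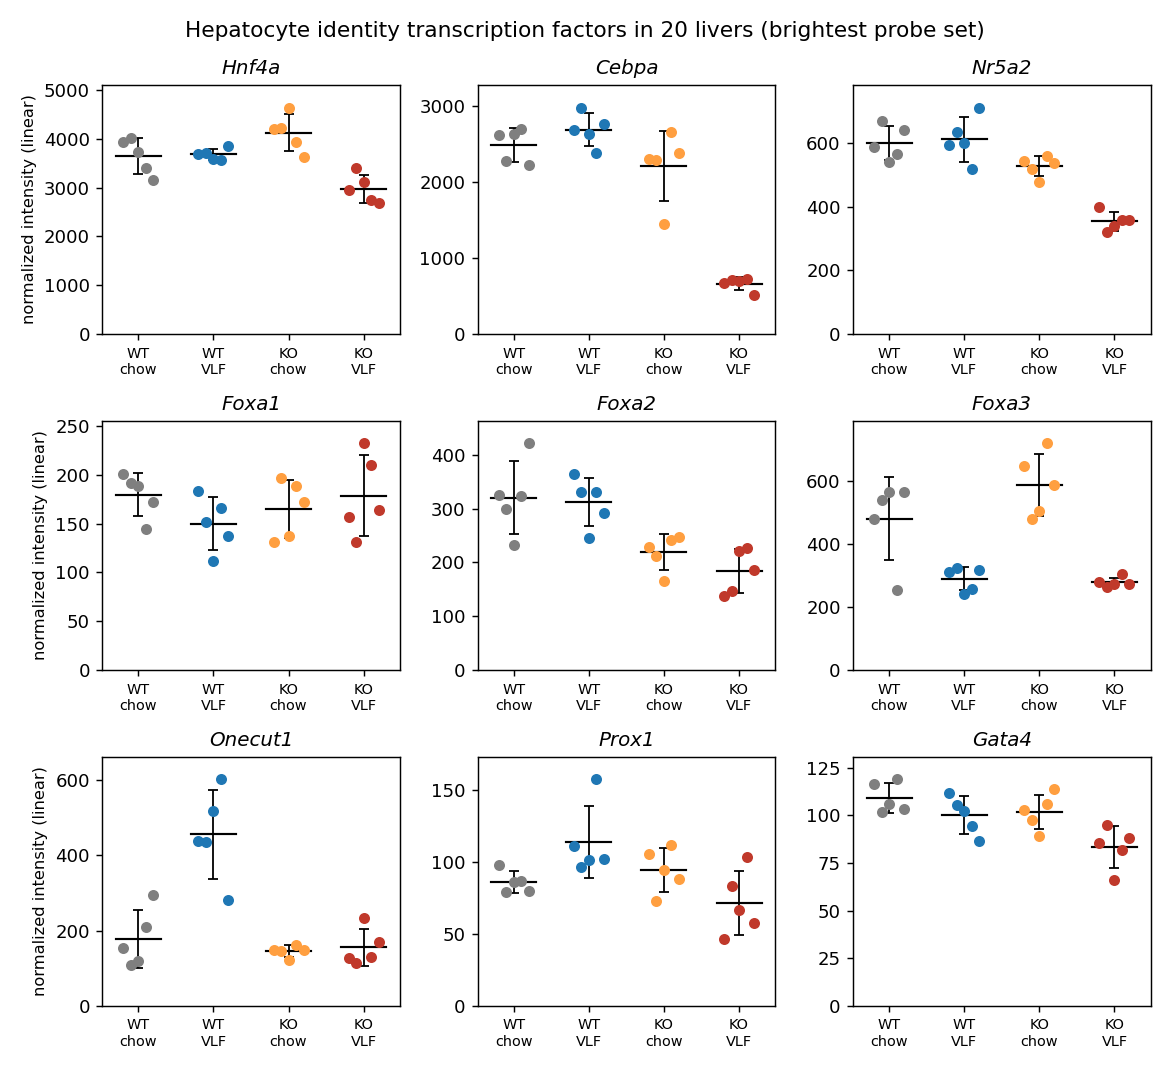
Normalized intensity (linear scale) of the brightest probe set of each of the 9 genes in 20 livers. Points are livers, horizontal lines are group means and whiskers are SD, with n = 5 per group, WT for Scd1+/+, KO for Scd1-/- and VLF for the very low fat diet. Cebpa and Nr5a2 in the 5 knockout VLF livers lie below all 15 other livers, and Onecut1 is raised in the wild-type VLF group.

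Cebpa encodes C/EBP-alpha, which drives genes of glycogen and lipid storage, the urea cycle and gluconeogenesis and restrains cell division. Its normalized intensity was 2618, 2272, 2622, 2688 and 2218 in wild-type chow livers and 2681, 2975, 2626, 2378 and 2754 in wild-type VLF livers. It was 2299, 2282, 1440, 2657 and 2375 in knockout chow livers, and 675, 712, 692, 724 and 510 in knockout VLF livers. The knockout VLF livers were low as a group, each below all 15 other livers, while the other 3 groups overlapped. Knockout chow replicate 3 was the lowest of the remaining livers, and still far above the highest knockout VLF liver.

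Against the wild type on the same diet, Cebpa fell 4.07-fold in the knockout, a log2 change of -2.03 with a standard error of 0.13 (limma adjusted p = 1.10e-09, n = 5 and 5 livers). Against the knockout on chow it fell by 1.72 ± 0.13 on the log2 scale, 3.30-fold (adjusted p = 9.04e-09). On chow the knockout differed from the wild type by -0.19 ± 0.13 (adjusted p = 0.46), and the diet in the wild type gave 0.11 ± 0.13 (adjusted p = 0.971). The interaction, the genotype difference on the VLF diet minus that on chow, was -1.83 ± 0.19 (adjusted p = 1.07e-06). The fall on the VLF diet ranged from -2.03 to -1.70 over the 11 other ways of processing, and it passed the test in all of them.

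Nr5a2 encodes LRH-1, a nuclear receptor that activates bile acid synthesis and reverse cholesterol transport genes. Its intensity was 586, 668, 539, 566 and 640 in wild-type chow livers and 592, 632, 600, 519 and 710 in wild-type VLF livers. Knockout chow livers gave 542, 518, 478, 560 and 537, and knockout VLF livers 400, 319, 338, 356 and 357. As with Cebpa, the 5 knockout VLF livers were below all 15 others and the other groups overlapped. Of all measurable genes, 9.80% had the 5 knockout VLF livers below the 15 others, and 15.8% of those of mean log2 at least 6, against 2 of the 9 members.

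On the VLF diet Nr5a2 fell 1.72-fold in the knockout (log2 change -0.78 ± 0.08, limma adjusted p = 2.98e-07). It fell 1.49-fold from chow to VLF in the knockout (-0.58 ± 0.08, adjusted p = 1.35e-05), and the interaction was -0.60 ± 0.11 (adjusted p = 0.000659). With the hybridization controls as the scale the genotype difference on the VLF diet was -0.41 and still passed the test (adjusted p = 0.0128), while the diet effect in the knockout (-0.16) and the interaction (-0.26) did not. On chow the knockout stood at -0.18 ± 0.08 (adjusted p = 0.184).

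Hnf4a encodes the nuclear receptor often placed at the top of the hepatocyte network, an activator of apolipoprotein, clotting factor and bile acid genes. Its intensity was 3934, 4016, 3735, 3398 and 3147 in wild-type chow livers and 3686, 3705, 3591, 3576 and 3856 in wild-type VLF livers. It was 4209, 4216, 4640, 3934 and 3623 in knockout chow livers, and 2951, 3393, 3107, 2749 and 2677 in knockout VLF livers. All knockout VLF livers were below all livers of the wild type on VLF and of the knockout on chow, and 1 of them overlapped the wild type on chow. The order of group means was knockout VLF, wild-type chow, wild-type VLF, knockout chow, and the upper 3 groups overlapped.

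On the VLF diet Hnf4a fell 1.24-fold in the knockout (log2 change -0.31 ± 0.08, limma adjusted p = 0.00355) and 1.39-fold from chow to VLF within the knockout (-0.47 ± 0.08, adjusted p = 8.51e-05). The knockout stood at 0.18 ± 0.08 on chow (adjusted p = 0.18), and the interaction was -0.49 ± 0.11 (adjusted p = 0.00269). Scaled on the hybridization controls, the genotype difference on the VLF diet was -0.08 (adjusted p = 0.857), the diet effect in the knockout -0.13 and the interaction -0.16, none of them called. As the mean of its 4 probe sets, the genotype difference was larger, -0.48.

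The 4 Hnf4a probe sets were called lower in each of these 3 comparisons. They ran from -0.67 to -0.31 for the knockout on the VLF diet, from -0.95 to -0.47 for the diet in the knockout, and from -0.98 to -0.49 for the interaction. The brightest probe set gave the smallest of the 4 changes in each. On chow 1 of the 4 was called, and it was higher in the knockout (0.37 ± 0.10, adjusted p = 0.0477). Of the 4 Nr5a2 probe sets, 3 fell in the knockout on the VLF diet, from -0.80 to -0.61, and the remaining one lay at 24.3 to 34.4 in all livers, close to the medians of the arrays (32.2 to 36.5). Cebpa, Foxa1, Foxa2 and Foxa3 were each read by 1 probe set, so no second probe set checks them.

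**Figure D2:**
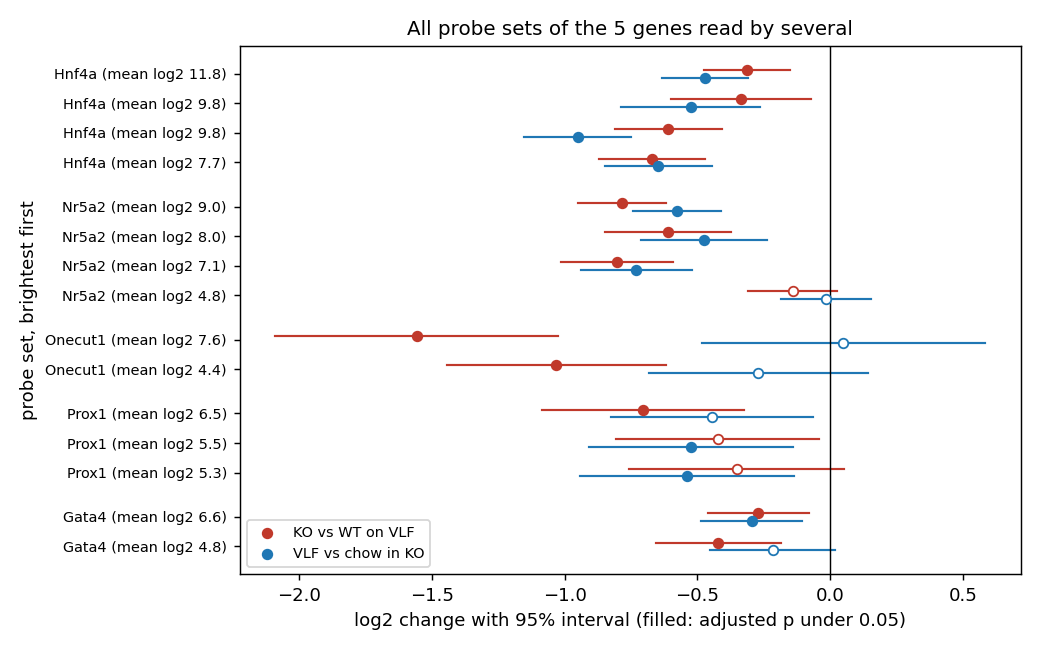
Log2 change (x axis) of all probe sets of the 5 genes read by several, brightest first within a gene, for knockout against wild type on VLF (red) and VLF against chow in the knockout (blue). Bars are 95% intervals from limma, and filled points have adjusted p under 0.05. All 4 Hnf4a probe sets lie left of 0 in both comparisons, and the dimmest Nr5a2 probe set lies close to 0.

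The 3 FOXA genes, whose forkhead proteins open liver enhancers for the other factors, did not move together. Foxa2, the member linked to fasting metabolism and bile acid balance, read 325, 300, 233, 323 and 421 in wild-type chow livers and 364, 330, 245, 330 and 292 in wild-type VLF livers. Knockout livers read 229, 212, 165, 242 and 247 on chow and 137, 147, 221, 226 and 186 on VLF. Knockout VLF livers were below all wild-type VLF livers but overlapped the knockout on chow.

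Compared with the wild type on VLF, Foxa2 fell 1.72-fold in the knockout (log2 change -0.79 ± 0.17, limma adjusted p = 0.00111). On chow the difference was -0.54 ± 0.17 with adjusted p = 0.075, and the interaction was -0.25 ± 0.24 (95% interval -0.74 to 0.25, adjusted p = 0.678). The genotype difference on VLF was therefore not shown to exceed that on chow. With probe sets of mean log2 under 6 left out before the adjustment, the chow difference passed (adjusted p = 0.0352). Scaled on the hybridization controls, the VLF difference was -0.40 and did not pass (adjusted p = 0.154).

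Foxa3, the FOXA gene that comes on last in liver development, read 477, 539, 565, 254 and 563 in wild-type chow livers and 311, 323, 242, 257 and 316 in wild-type VLF livers. Knockout livers read 646, 478, 505, 718 and 585 on chow, and 280, 263, 272, 303 and 272 on VLF. Both VLF groups were low and overlapped each other, and wild-type chow replicate 4 was the 1 chow liver at their level.

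For Foxa3 the genotype difference on VLF was -0.05 ± 0.18 (95% interval -0.42 to 0.32). The diet effect was -1.06 ± 0.18 in the knockout, a 2.09-fold fall (limma adjusted p = 0.000105), and -0.68 ± 0.18 in the wild type (adjusted p = 0.0737). Without wild-type chow replicate 4 the latter was -0.89 and passed the test (adjusted p = 0.000882), as it did with dim probe sets left out (adjusted p = 0.0223). The interaction was -0.38 ± 0.25 (adjusted p = 0.403), so the diet effect was not shown to differ between genotypes.

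Foxa1, the forkhead gene active from the earliest liver bud, read 201, 191, 189, 145 and 172 in wild-type chow livers and 183, 152, 112, 166 and 138 in wild-type VLF livers. Knockout livers read 131, 196, 137, 188 and 172 on chow, and 157, 131, 232, 210 and 164 on VLF. All 4 groups overlapped. The genotype difference on VLF was 0.24 ± 0.16 (95% interval -0.10 to 0.58, adjusted p = 0.304), and no comparison passed the test. With the hybridization controls as the scale the same difference was 0.62 and was called higher (adjusted p = 0.0296).

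Onecut1 encodes HNF6, which acts in hepatocyte and bile duct differentiation and is known as a target of growth hormone signalling. Its intensity was 153, 109, 119, 210 and 294 in wild-type chow livers, and 438, 437, 519, 602 and 282 in wild-type VLF livers. Knockout livers gave 148, 147, 122, 163 and 149 on chow and 127, 115, 234, 131 and 170 on VLF. The wild-type VLF livers were the high group, above all knockout livers on either diet, and 1 of them overlapped the wild type on chow.

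Onecut1 was the 1 member called for the diet in the wild type, where 1.77% of measurable genes were called and 0.896% as higher. It rose 2.68-fold (log2 change 1.42 ± 0.25, limma adjusted p = 0.00907), and in a fit of those 2 groups alone the adjusted p was 0.0888. In the knockout the diet effect was 0.05 ± 0.25 (95% interval -0.48 to 0.58). On VLF the knockout was 2.94-fold below the wild type (-1.56 ± 0.25, adjusted p = 8.01e-05), and the interaction was -1.37 ± 0.36 (adjusted p = 0.0101). The interaction was -1.01 with the hybridization controls as the scale and narrowly missed the threshold (adjusted p = 0.0509). The knockout livers of both diets overlapped, and the wild-type VLF livers were the group that stood above the others. A dimmer second probe set, at the floor in 6 livers, gave a rise of 0.95 in the wild type (adjusted p = 0.0236) and a gap of -1.03 on VLF (adjusted p = 0.000396).

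Prox1, a homeobox gene of hepatocyte outgrowth that also marks lymphatic endothelium and acts as a corepressor of HNF4A and NR5A2, was dim. It read 98.4, 79.3, 85.9, 86.8 and 79.7 in wild-type chow livers and 111, 96.7, 102, 158 and 102 in wild-type VLF livers. Knockout livers read 106, 72.9, 94.6, 112 and 88.7 on chow, and 46.3, 83.8, 66.6, 104 and 57.5 on VLF. The groups overlapped, since knockout VLF replicate 4 lay within the wild-type VLF range, while 3 knockout VLF livers were below all 15 others.

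Prox1 fell 1.63-fold in the knockout on VLF (log2 change -0.70 ± 0.18, limma adjusted p = 0.00512). Of its 3 probe sets, 1 was called there, and the others were at -0.42 and -0.35. The interaction was -0.83 ± 0.26 (adjusted p = 0.0282), and it missed the threshold when any 1 of 5 arrays was left out, with adjusted p up to 0.0569: knockout VLF replicate 5, knockout chow replicate 1 or 4, wild-type VLF replicate 4 or wild-type chow replicate 2. Of the markers that lymphatic endothelium carries, Lyve1 rose on VLF by 2.45 ± 0.37 (adjusted p = 3.34e-05), while Flt4 and Pdpn, picked once their values were known, did not pass the test at -0.14 and -0.03. Their part in the Prox1 difference was not tested. With the hybridization controls as the scale the VLF difference was -0.43 and did not pass (adjusted p = 0.282).

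Gata4, a zinc finger factor of the early liver bud that in adult liver is also made by sinusoidal endothelium, was also dim. It read 116, 102, 106, 119 and 103 in wild-type chow livers and 112, 106, 102, 94.7 and 86.4 in wild-type VLF livers. Knockout livers read 103, 97.7, 89.3, 106 and 114 on chow, and 85.4, 95.2, 66.0, 81.8 and 88.3 on VLF. The knockout VLF livers were below all wild-type chow livers and overlapped the other groups.

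Gata4 fell 1.21-fold in the knockout on VLF (log2 change -0.27 ± 0.09, limma adjusted p = 0.0281) and 1.23-fold from chow to VLF in the knockout (-0.30 ± 0.09, adjusted p = 0.0201). The first call was lost without knockout VLF replicate 3 or 4 or wild-type VLF replicate 1, 2 or 3, with adjusted p up to 0.089, and the second without knockout VLF replicate 3 or knockout chow replicate 5. In fits of the compared groups alone neither passed (adjusted p = 0.0789 and 0.0651), and with median scaling alone the first was -0.16 (adjusted p = 0.126). Both changed sign with the hybridization controls as the scale, to 0.03 and 0.08, and neither was called. A second, dimmer probe set fell by 0.42 ± 0.11 in the knockout on VLF (adjusted p = 0.00641), with the groups apart, and did not pass for the diet in the knockout (-0.22, adjusted p = 0.189). The interaction was -0.17 ± 0.13 (adjusted p = 0.532) from the brighter one. Of the endothelial markers, Oit3 and Kdr fell beside it on VLF, by 0.70 and 0.69, while Lyve1 and Clec1b rose by 2.45 and 1.69. On the hybridization control scale Oit3 and Kdr were both at -0.31 and did not pass. Their part in the Gata4 difference was not tested.

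**Figure D3:**
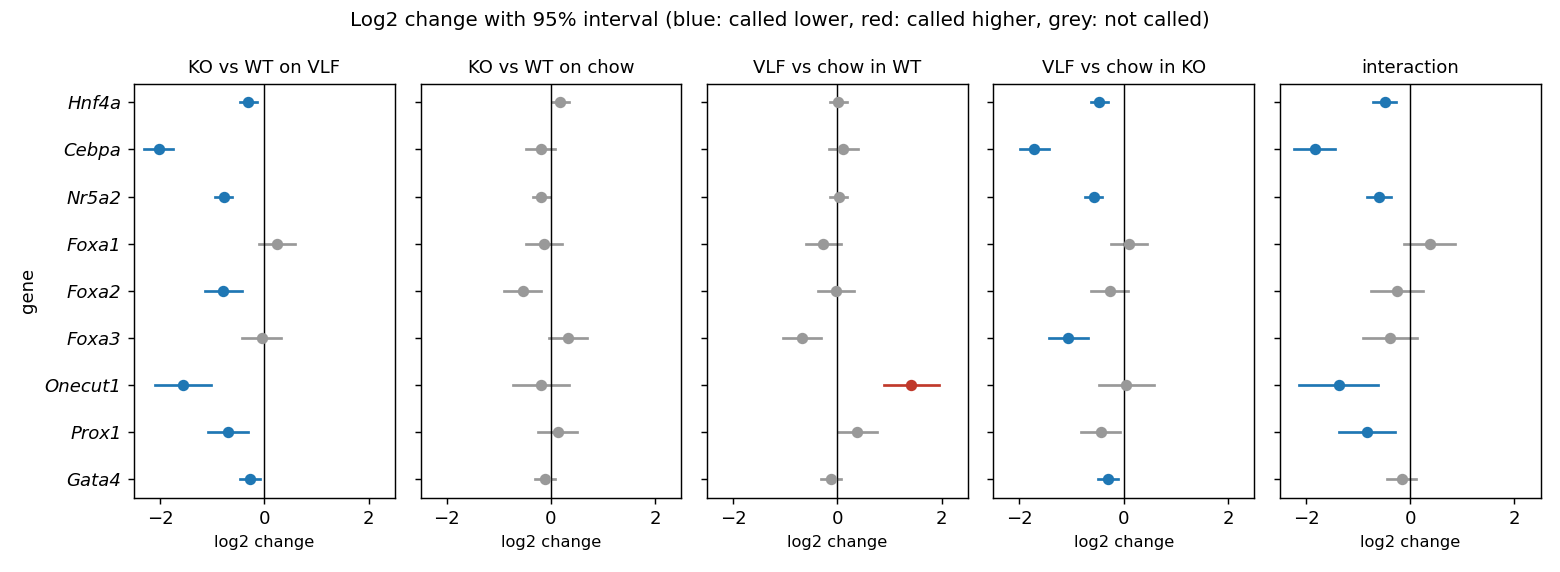
Log2 change with 95% interval (x axis) of the 9 genes in each of the 5 comparisons, from limma. Blue points were called lower, red higher and grey not called at adjusted p under 0.05. The panel for chow has no called gene, that for diet in the wild type has Onecut1 alone, and the VLF panel has 7 lower.

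On chow the test separated knockout from wild type in none of the 9 genes, where 3.29% of measurable genes were, and 3 of the 9 had an unadjusted p under 0.05 (only limma was run). Within the knockout 5 members fell from chow to VLF (Cebpa, Foxa3, Nr5a2, Hnf4a and Gata4), where 39.1% of measurable genes were called and 19.9% as lower. For the interaction 5 were called lower (Cebpa, Onecut1, Prox1, Nr5a2 and Hnf4a), where 27.2% of measurable genes were called and 13.6% as lower. The members' median log2 change was -0.45 for the diet in the knockout, against -0.03 over all genes, and -0.49 for the interaction, against -0.00. Scaled on the hybridization controls, these counts were 2 and 1, while the median of all genes stood at 0.30 and 0.33. Genes called lower on that scale were 871 and 618 of 16545. The diet comparison in the knockout and the genotype comparison on VLF share the 5 knockout VLF livers, so they are not independent.

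The other liver-enriched transcription factors showed mostly falls, in a comparison where 33.9% of the brighter genes were lower. Of 24 measured on the list, 15 fell in VLF-fed knockouts, 2 rose and 7 did not pass the test, with a median log2 change of -0.48 against -0.06 over all genes. Nr1i3, the xenobiotic receptor CAR, fell by 1.55 ± 0.14 on the log2 scale (limma adjusted p = 8.07e-08), and Nr1h4, the bile acid receptor FXR, by 1.34 ± 0.13 (adjusted p = 1.78e-07). The nuclear factor I genes Nfib and Nfia, which bind liver enhancers beside the forkhead proteins, fell by 1.25 ± 0.10 and 0.93 ± 0.07. The 2 that rose were Cebpd, an acute-phase C/EBP gene, at 1.79, and Gata6 at 0.47, and both are named because they were the only rises. On chow 1 of the 24 was called, Cebpd at 1.52, and for the diet in the wild type none was, by limma. Of measurable genes 3.29% and 1.77% were called there.

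Cofactors of the members were split, in a comparison where 25.8% of measurable genes were lower and 21.5% higher. Of 10 measured, Ppargc1a, the fasting-induced coactivator of HNF4A, rose by 1.59 ± 0.27 (adjusted p = 0.000132), and Kdm1a, a histone demethylase, rose by 0.67 ± 0.08 (adjusted p = 2.36e-06). Zfpm1, a GATA partner also called FOG1, fell by 0.73 ± 0.13 (adjusted p = 0.000243), and stood uncalled at -0.35 with the hybridization controls as the scale. Ncoa2 fell by 0.21 ± 0.08 (adjusted p = 0.0407), a change that became 0.19 and uncalled on that scale. The Ncoa2 call was also lost without any 1 of knockout VLF replicates 1, 3 and 5 and wild-type VLF replicates 2, 3, 4 and 5, with adjusted p up to 0.0999. The other 6 did not pass the test, and the list's median was -0.09.

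Textbook target genes of the factors were read beside them. For the knockout against the wild type on VLF, 33.9% of the brighter genes were lower. Of 13 HNF4A targets, 9 fell in the knockout on VLF and none rose, with a median of -0.43. Cyp8b1, the sterol hydroxylase that sets the cholic acid share of bile acids, fell by 3.94 ± 0.41 (adjusted p = 3.95e-07), and Slc10a1, the bile acid uptake transporter NTCP, by 1.89 ± 0.16 (adjusted p = 2.03e-08). Otc of the urea cycle fell by 1.31 ± 0.07 and the clotting factor gene F7 by 1.11 ± 0.08. On chow and for the diet in the wild type none of the 13 was called by limma. In those comparisons 3.29% and 1.77% of measurable genes were called.

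Of 8 C/EBP-alpha targets, 3 fell: Gys2, the liver glycogen synthase, by 1.50 ± 0.14 (adjusted p = 9.17e-08), Otc, which is also on the HNF4A list, and Tdo2, which degrades tryptophan, by 0.58 ± 0.12. The other 5 did not pass, and the list's median was -0.20. Among the brighter genes 33.9% were lower, near the 3 of 8 here and the 3 of 9 on the FOXA list. Tat, a tyrosine-degrading enzyme, stood at 0.44 ± 0.19 (adjusted p = 0.078), but it was called higher without wild-type VLF replicate 3 (0.54, adjusted p = 0.0377) and with dim probe sets left out (adjusted p = 0.0352). Of 9 FOXA targets, Igfbp1, a fasting-induced binding protein of insulin-like growth factors, rose by 3.68 ± 0.47 (adjusted p = 4.60e-06). Cpt1a, Tdo2 and Slc2a2 fell by 0.65, 0.58 and 0.53, and the median was -0.13. Scaled on the hybridization controls, these 3 stood at -0.39, -0.34 and -0.30 and did not pass, while Tat was called higher at 0.67. Without knockout VLF replicate 5 the Slc2a2 call was lost (adjusted p = 0.0517). Of 7 NR5A2 targets, 4 fell, among them Abcg8, a canalicular sterol exporter, by 0.94 and Abcb11, the bile salt export pump, by 0.95. Scarb1, the HDL receptor, rose by 0.64 ± 0.13 (adjusted p = 0.000858). The NR5A2 and HNF4A lists share genes, Cyp8b1 among them, so their counts are not separate evidence. The same holds for the C/EBP-alpha and FOXA lists, which share Tat and Tdo2 among others, and Tdo2 is counted as a fall in both.

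**Figure D4:**
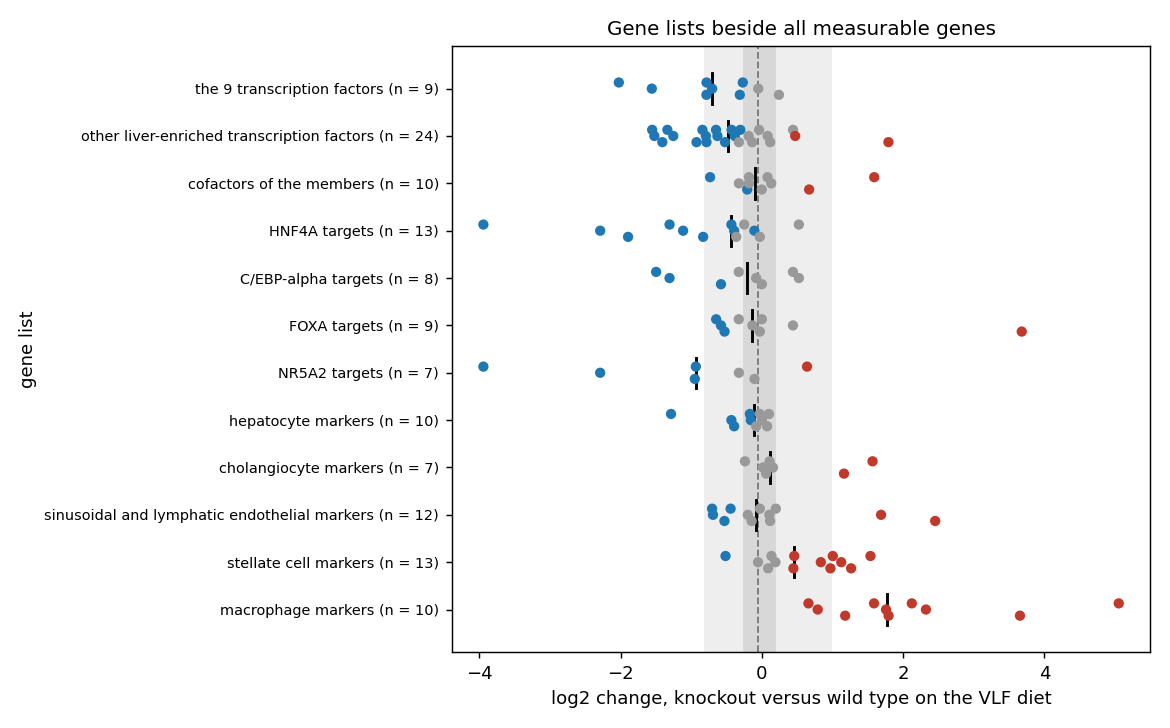
Log2 change, knockout against wild type on the VLF diet (x axis), of the 9 factors and of each list of related genes and cell markers. Points are genes (blue called lower, red called higher, grey not called by limma), black bars are list medians, the dashed line is the median of all 16187 measurable genes, and the darker and lighter bands hold their central 50% and 90%. The factors' median lies at -0.70 and the macrophage markers' at 1.77.

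Markers of the cells that bulk liver holds were read the same way, because fewer cells of a type and less RNA per cell cannot be told apart in whole tissue. In a comparison where 33.9% of the brighter genes were lower, 5 of 10 hepatocyte markers fell in the knockout on VLF and none rose, with a median of -0.12. Their mean log2 intensities were 13.04 to 14.55, near the top of the arrays' range, and the sizes of their changes are not compared with those of the factors. Hpd, of tyrosine breakdown, fell by 1.29 ± 0.08, Apoa2 by 0.43 ± 0.04, Apob by 0.39 ± 0.06 and Serpina1c by 0.16 ± 0.04 (limma adjusted p from 2.89e-10 to 0.00965). The 5 that did not pass were Alb (-0.00), Ttr (-0.03), Cps1 (-0.08), Apoa1 (0.07) and Ahsg (0.10). Quantile normalization gives each rank the same value on every array, which leaves the very brightest probe sets little room to differ. Not passing therefore does not show that Alb, Ttr or Apoa1 were unchanged. Scaled on the hybridization controls, Apob (-0.13) and Serpina1c (-0.05) did not pass. All 10 macrophage markers rose, with Cd14 at 5.05 ± 0.30, Cd68 at 2.32 ± 0.13, Ctss at 2.12 ± 0.10 and Lyz2 at 1.79 ± 0.14. Their summed intensity was 18049 to 26792 in knockout VLF livers, 5706 to 6807 in wild-type VLF livers, 6964 to 10322 in knockout chow livers and 7062 to 7646 in wild-type chow livers.

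Of 13 stellate cell markers, 8 rose and 1 fell. Over all measurable genes 21.5% were called higher and 25.8% lower, and the counts of this paragraph stand beside those shares. Timp1 rose by 1.54 ± 0.13, Dcn by 1.12 ± 0.07, Col1a1 by 1.00 ± 0.19 and Col1a2 by 0.97 ± 0.12, and the summed intensity was 5926 to 7466 in knockout VLF livers against 3506 to 4264 in wild-type VLF livers. Of 12 endothelial markers, 2 rose and 4 fell. Of 7 cholangiocyte markers, 2 rose and 5 did not pass the test, with a median of 0.11. Sox9, a duct and progenitor factor, rose by 1.16 ± 0.12 and Cldn4 by 1.57 ± 0.16. The duct keratins Krt7 (0.06) and Krt19 (0.02), Cldn7 (0.16) and Epcam (-0.24) did not pass, and Cftr was at the floor in all livers. Krt7 and Cldn7, at mean log2 of 4.11 and 4.64, were near the floor, where a fall could hardly show and a rise may be shrunk. Sox9 and Cldn4 were dim too, at 5.23 and 5.22. Under the other processing they stayed called, at 0.53 to 1.41 and 0.80 to 1.85. Of 7 fetal liver genes, 2 rose and 5 did not pass, with a median of -0.11. Cd24a rose by 0.93 ± 0.24 (adjusted p = 0.00519) and Gpc3 by 0.28 ± 0.10 (adjusted p = 0.0287), while Afp (-0.13), Igf2 (-0.15), Igf2bp3 (-0.11), Dlk1 (-0.15) and Hmga2 (0.10) did not pass. Dlk1 and Hmga2, at mean log2 of 4.71 and 4.09, were also near the floor. The Gpc3 call was lost without knockout VLF replicate 2, 3 or 5 or wild-type VLF replicate 3, with adjusted p up to 0.0822. The part of these markers in the changes of the 9 factors was not tested.

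The genes whose values ran most like each member over the 20 livers were drawn from 9292 genes that were never at the floor and had a mean log2 of at least 6. Igfals and Dgat2 followed Cebpa most closely, with Pearson r of 0.98 each, and r of 0.89 and 0.72 after the group means were removed. Igfals encodes a liver carrier of circulating IGF complexes, and Dgat2 the last enzyme of triglyceride synthesis. They fell by 2.48 and 1.73 in the knockout on VLF. Nr1h3, the oxysterol receptor LXR-alpha, ran most like Nr5a2 (r = 0.96, and 0.76 within groups), followed by Fkbp4 (0.95 and 0.60). The 20 livers share the 4 group differences, which enter r over all of them. Each gene named here and below has 1 of the 2 highest r among 9292, so its r is high by selection and was not tested.

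For Hnf4a the nearest genes were Ppm1a (r = 0.89, and 0.80 within groups) and Pcnp (0.89 and 0.67). For Foxa2 they were Cish, a cytokine-inducible SOCS-family gene (0.90 and 0.78), and Khnyn (0.89 and 0.69), and for Foxa3 Enho (0.89 and 0.64) and Stat6 (0.88 and 0.78). Onecut1 ran most like Elovl5, a fatty acid elongase, at 0.85, but only at 0.27 within groups, and like Mindy1 (0.83 and 0.58). Foxa1 was nearest to Glce (0.77 and 0.79) and Dffa (0.73 and 0.75), Prox1 to Mapk14 (0.81 and 0.67) and Rreb1 (0.78 and 0.64), and Gata4 to Actl7b (0.87 and 0.74) and Lrrc18 (0.86 and 0.70).

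Among the 36 pairs of members, Cebpa and Nr5a2 had r = 0.92 over the 20 livers but 0.21 once group means were removed. Within groups the highest pair was Foxa2 with Onecut1, at 0.58, followed by Foxa1 with Foxa2 at 0.56. The lowest was Hnf4a with Onecut1, at -0.59, then Hnf4a with Foxa2 at -0.55. In these 20 livers more Hnf4a than the group mean went with less Onecut1 and Foxa2. The pairs named here were picked from the 36 as the highest or lowest, and none was tested. These are descriptions over 20 arrays that share their normalization.

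**Figure D5:**
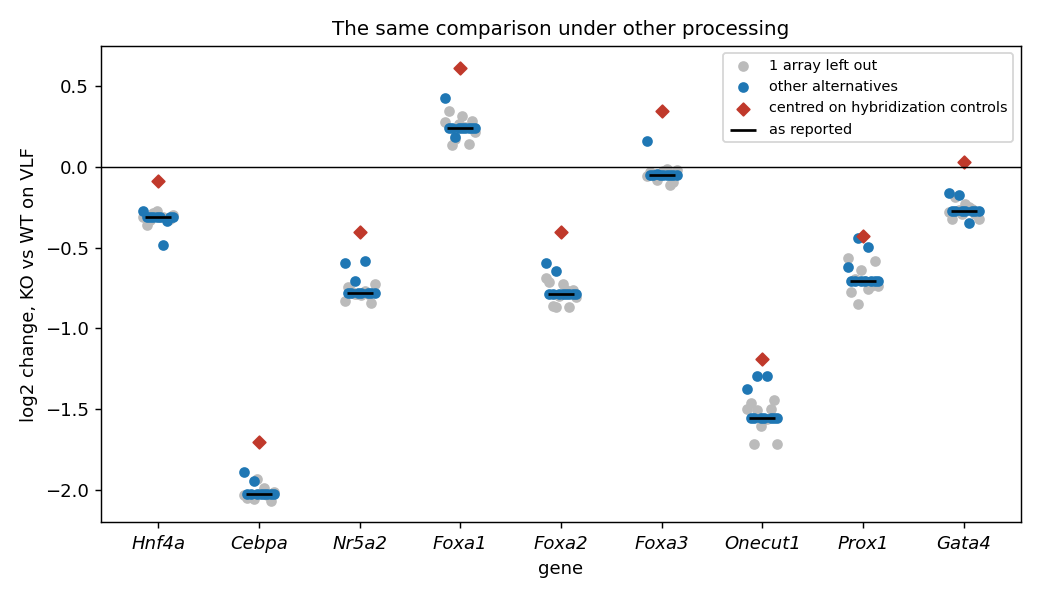
Log2 change, knockout against wild type on the VLF diet (y axis), of each of the 9 genes under the reported processing (black bar), with 1 array left out (grey), under other alternatives (blue) and with the arrays centred on the hybridization controls (red diamonds). Cebpa, Nr5a2 and Onecut1 stay below 0 and called under all of these, while Gata4 and Foxa3 lie above 0 with the hybridization controls, and Foxa3 with median scaling too.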

How the data were processed

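Liver RNA of 20 mice was measured on Affymetrix Mouse430v2.0 arrays, 1 per liver. The deposited series table holds 1 linear intensity per probe set, read as such from its values. Per the submitters' processing notes MAS5 and RMA were used, without saying which made these values, and no version is given there.

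Here each array was scaled to the common median, values under 16 were set to 16, and log2 values were quantile-normalized. Of 45101 probe sets, 64 controls were left out, and 9117 at the floor on all arrays counted as unchanged in the adjustment. limma 3.58.1 in R 4.3.3 fitted a mean per group over the 20 arrays (16 residual degrees of freedom), with empirical Bayes moderation and p-values adjusted by Benjamini-Hochberg over 45037 probe sets, and ± after a log2 change is its standard error. A gene was read from the brightest probe set naming it alone. Nothing beyond the labels' "individual livers" says how mice were housed or RNA extracted together. The p-values treat the livers as independent and set group differences against the spread between livers within groups. The number of arrays limits the precision, and a level is not compared between probe sets.

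The members and gene lists were chosen with earlier results of these data known. The text names all members, Scd1 and the 2 genes most correlated with each member. Of each list it names up to 4 genes, by smallest adjusted p for knockout against wild type on the VLF diet. Flt4, Pdpn, Cebpd, Gata6, Cftr, Krt7, Krt19, Afp, Igf2, Igf2bp3, Alb, Ttr, Cps1, Apoa1, Ahsg, Xist and Eif2s3y were named after their values were seen. Alternatives were other scalings, floors of 8 and 32, an offset of 50, a filter at mean log2 of 6, fits of the compared groups, other probe set rules, trend and robust limma, a replicate block and each array left out. Some list genes were not analysed here. limma was tested on simulated data. Python 3.11.15 with matplotlib 3.10.9 drew the figures. Promoter windows come from RefSeq, and no promoter is shown for Gata4.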

Additional observations from a re-analysis of the deposited data

Results flagged for a closer look

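In 4 of the 36 sets of 5 livers (9 genes in 4 groups), the highest or lowest liver stood apart from the rest, where chance picks out about 1 in 20. Cebpa was 1440 in knockout chow replicate 3, against 2282 for the next liver. It was 510 in knockout VLF replicate 5, against 675 for the next. Foxa3 was 254 in wild-type chow replicate 4, against 477, and without that liver the diet effect in the wild type passed the test. Prox1 was 158 in wild-type VLF replicate 4, against 111, and without it the Prox1 interaction missed the threshold.

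The genotype difference itself differed between the diets, by the interaction term of limma, for 5 of the 9 genes. For that term 27.2% of measurable genes were called and 13.6% as lower. With the hybridization controls as the scale only Cebpa stayed called. The interaction was -1.83 for Cebpa, -1.37 for Onecut1, -0.83 for Prox1, -0.60 for Nr5a2 and -0.49 for Hnf4a on the log2 scale. It is negative where the knockout minus wild-type difference was lower on VLF than on chow. For Cebpa, Nr5a2 and Hnf4a the knockout livers fell from chow to VLF, and for Onecut1 the wild-type livers rose. For Prox1 the brightest probe set was called for the diet in neither genotype, while 2 of its 3 probe sets were called lower in the knockout.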

How the results depend on the processing

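Of the members' changes, 516 kept their direction and their side of the threshold with an array left out and 454 under the other alternatives, 12 and 15 lost the call, 3 and 5 gained it, and 9 and 14 changed sign, 2 of the latter among the lost calls. Centring on the hybridization controls, which also left out quantile normalization, changed most. Members called were 4 for knockout against wild type on VLF, 2 for the diet in the knockout and 1 for the interaction. Genes called for these were 6049, 7669 and 4583, of which 957, 871 and 618 were lower. On that scale 3 genes were called on chow and 50 for the diet in the wild type. Signs turned there for Foxa3 (0.35) and Gata4 (0.028), Dlk1 (0.018), Epcam (0.13) and Ncoa2 (0.19) on VLF, Foxa2 for the diet in the wild type (0.056), Foxa2 (0.15) and Gata4 (0.084) for the diet in the knockout, and Foxa2 (0.090) and Gata4 (0.18) for the interaction. The cause was not tested.

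With median scaling alone 1497 genes were called on chow and 178 for the diet in the wild type, and signs turned for Foxa3 on VLF (0.16), for Nr5a2 (0.057), Foxa1 (0.086), Onecut1 (0.021) and Gata4 (0.046) on chow and for Foxa2 with the diet in the wild type (0.083). With dim probe sets left out, so that fewer are tested, 1 member and 1133 genes were called on chow and 2 members and 477 genes for the diet in the wild type. Fits of the compared groups alone, with fewer samples, called 12 genes on chow, and 140 genes and 0 members for the diet in the wild type. The mean of all probe sets turned Onecut1 for the diet in the knockout (-0.11), and probe sets without the suffixes x_at and s_at turned Dlk1 (0.038) and Epcam (0.15) on VLF. No change of sign was called on both sides.

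With an array left out, 6 to 7 members were called on VLF, 0 to 0 on chow, 1 to 2 for the diet in the wild type, 4 to 6 for the diet in the knockout and 4 to 5 for the interaction. Genes called were 6741 to 7996, 26 to 1034, 128 to 284, 5783 to 6655 and 4119 to 4580. Uncalled changes that crossed 0 ranged from -0.11 to 0.15 for Onecut1 with the diet in the knockout and from -0.34 to 0.021 on chow, and with the diet in the wild type from -0.13 to 0.081 for Foxa2, -0.033 to 0.080 for Nr5a2 and -0.032 to 0.056 for Hnf4a.

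Over 30 pairs of same-numbered livers the correlation of their deviations ran from -0.25 to 0.27, with 6 above 0.1. Differently numbered livers were not read beside them, so this does not decide whether the numbers mark a pairing. With the replicate block 260 genes were called on chow, against 532 without it, and no member's call changed. Prox1 and Gata4 signals were a few times the median of the arrays, where background can shrink a fold change.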
